A study of Mus musculus with 24 samples.

Results

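Transcriptomes were compared for 4 small-molecule inhibitors of the focal adhesion kinase (FAK), defactinib, VS-4718, GSK2256098 and IN10018 (ifebemtinib), which were chosen because each was used at 1 μM for 24 hours in the same cells beside a common set of dimethyl sulfoxide (DMSO) controls. They make up 12 of the 24 RNA sequencing libraries of the series, 3 for each inhibitor, and were set against the 3 DMSO libraries, giving 15 libraries. The cells were MS03, an immortalized murine Schwann cell (SC) line from an *Nf2* flox/flox mouse in which Cre was used to delete *Nf2*. All groups, DMSO included, therefore carry the same *Nf2*-/- genotype, and all come from 1 line, so that P values measure the spread between cultures of that line and not between animals or lines. Each inhibitor was given equal weight, and the 4 comparisons with DMSO share the same 3 control libraries. The remaining 9 libraries, from FAK-targeting degraders at 1 or 0.1 μM, entered the model to estimate the spread between replicates. They also took part in the filter of genes and in the scaling of library totals.

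FAK is a cytoplasmic tyrosine kinase that is recruited to focal adhesions, where integrins join the extracellular matrix to the actin cytoskeleton. Once activated it autophosphorylates, binds SRC and passes signals on to the ERK, PI3K and Hippo-YAP pathways, and it is well known in SCs for its role in adhesion, proliferation and myelination. ATP-competitive inhibitors block its catalytic activity and leave the protein in place as a scaffold. Defactinib and ifebemtinib are both built on a pyrimidine that bears a trifluoromethyl group and an anilino substituent, and they differ, among other features, in the next linkage, which is an aminomethyl bridge to a pyrazine in defactinib and an oxygen bridge to an isoindolinone in ifebemtinib.

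Total counts ranged from 21654444 to 27449516 over the 15 libraries. *Sox10*, the transcription factor that specifies SCs, averaged 28.8 CPM (here scaled by library totals) over the 15 libraries, whereas *S100b*, a marker of mature SCs, averaged 0.190 CPM. Of 8 macrophage and 6 endothelial markers, all 14 averaged under 1 CPM, with *Ptprc*, *C1qa*, *C1qb*, *Tyrobp* and *Tie1* at 0 counts in every library. The fibroblast collagens *Col1a1* and *Col3a1* were abundant, at means of 421 and 402 CPM, whereas *Lum* was at 0 and *Dcn* and *Thy1* were below 0.1 CPM. GSK2256098 replicate 1 and IN10018 replicate 2 stood apart from their own replicates. The chi-square per degree of freedom between replicates was 6.39 and 8.62 for the pairs that held the former and 5.66 and 6.32 for those that held the latter, compared with 1.90 and 1.88 between the other pair of each group, and with 1.88 to 8.62 over all 15 pairs. *Rn7sk*, a noncoding RNA without a poly(A) tail, was at 75.9 CPM in the former and 10.5 and 9.22 in its partners, and at 52.0 CPM in the latter and 12.3 and 11.7 in its partners. VS-4718 replicate 2 and DMSO replicate 2 were also raised, at 37.2 and 31.0 CPM. The chi-square per degree of freedom between VS-4718 replicates was also large, at 4.54, 4.17 and 6.30. Large values were therefore not confined to GSK2256098 replicate 1 and IN10018 replicate 2. Gene levels from here on are CPM with TMM-scaled totals. Without GSK2256098 replicate 1 and IN10018 replicate 2, 1649 genes were called against DMSO with GSK2256098 and 1810 with IN10018, compared with 2001 and 2136 with them.

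The mRNA of the target itself, *Ptk2* (ENSMUSG00000022607; GRCm38 chr15:73205102-73423280, minus strand), was measured in all libraries, at 92.9, 95.4 and 97.7 CPM with DMSO, 88.1, 87.7 and 83.7 with defactinib, 83.5, 84.1 and 85.3 with VS-4718, 88.8, 84.7 and 88.1 with GSK2256098 and 90.1, 92.9 and 89.2 with IN10018. Levels with defactinib, VS-4718 and GSK2256098 lay below every DMSO library, and the highest IN10018 library was level with the lowest DMSO library to 3 digits. The log2 fold changes were −0.14 (SE 0.035, edgeR adjusted p = 0.00253), −0.18 (SE 0.035, edgeR adjusted p = 6.53e-05), −0.13 (SE 0.035, edgeR adjusted p = 0.0101) and −0.072 (SE 0.035, edgeR adjusted p = 0.183), respectively, and the test that the 4 inhibitors were equal did not pass the threshold (edgeR F test, adjusted p = 0.0698). *Nf2* was counted at means of 180.5 to 188 CPM in the 5 groups and was not called with any inhibitor. These gene totals do not resolve the deleted exons.

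To determine which genes respond alike to the 4 inhibitors, each was tested against DMSO in a single quasi-likelihood model, and a gene was taken as shared when all 4 tests passed an adjusted p of 0.05 with the same sign. Of 16070 genes tested, 58 were higher (0.361%) and 83 were lower (0.516%) with all 4, a balance that turned with library totals in place of TMM scaling, to 71 higher and 52 lower. These 141 genes needed 4 calls, whereas the 8261 called with at least 1 inhibitor needed only 1. The inhibitors differed in how much they moved. With VS-4718, 20.4% of genes were higher and 18.9% lower, compared with 11.4% and 11.0% with defactinib, 6.36% and 6.09% with GSK2256098, and 6.44% and 6.85% with IN10018. These shares are the background for every count of list members, and nothing is read from list counts near them or of few genes. Scaled by library totals only, 62.6% of the VS-4718 calls were higher, compared with 51.9% with TMM, and the median over all tested genes moved from 0.0048 to 0.043 on the log2 scale. When the 4 inhibitors were averaged with equal weight, 9.97% of genes were higher and 10.5% lower (1602 and 1683 genes). This balance turned with library totals, to 2089 higher and 1259 lower, and the higher share of calls moved to 60.3% with defactinib, 60.6% with GSK2256098 and 55.5% with IN10018, from 50.9%, 51.1% and 48.5%. Of those 3285 genes, 2714 also differed among the inhibitors and 141 were called with each of them. A further 963 genes were called in 1 direction with 3 inhibitors, and the 1 that did not pass was IN10018 for 766 of them, defactinib for 131, GSK2256098 for 48 and VS-4718 for 18.

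In a fit of the 15 libraries alone, without the degraders, 55 genes were higher and 116 lower with all 4. The shared count also depended on single libraries. It fell to 30, 34 and 32 genes higher and to 59, 39 and 52 genes lower without DMSO replicates 1, 2 and 3, to 31 and 28 genes higher without IN10018 replicates 1 and 3, and to 51 higher and 54 lower without the pair of libraries that stood apart. When the largest of the 4 p-values was adjusted over all genes, an alternative added after the data were seen, 5 genes were higher (*Ptms*, *Unc5b*, *Anxa6*, *Ckb* and *Mbp*) and 7 were lower (*Usp24*, *Peg10*, *Cav2*, *Ddx21*, *Rrm2*, *Msln* and *Nolc1*), all of them among the 141. Genes just inside the rule were *Snrnp70* and *Slc19a2*, with a largest adjusted p of 0.0499 and 0.0492, and just outside it were *Exosc1* and *Usp15*, at 0.0508 and 0.0519.

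Over the 58 shared higher genes, the median log2 fold change was 0.28 with defactinib, 0.47 with VS-4718, 0.28 with GSK2256098 and 0.22 with IN10018, and over the 83 shared lower genes it was −0.15, −0.24, −0.16 and −0.15, respectively. VS-4718 had the largest change of the 4 for 44 of the 58 and 63 of the 83. A change of at least 1.5-fold with every inhibitor was reached by 2 of the higher genes, both named here after their values were seen, and by 0 of the lower genes. *Fbln7*, which encodes the matrix protein fibulin-7, had log2 fold changes of 0.89 with defactinib, 1.52 with VS-4718, 0.89 with GSK2256098 and 0.62 with IN10018. *Gm9905*, the only 1 past 2-fold with every inhibitor, had 1.81 with defactinib, 1.65 with VS-4718, 2.07 with GSK2256098 and 1.92 with IN10018, but was scarce, at 0.0905, 0.150 and 0.0824 CPM with DMSO and at most 0.646 CPM in a treated library. All 12 treated libraries lay above all 3 DMSO libraries for 52 of the 58 higher genes, against 1.13% of all genes tested, and below them for 79 of the 83 lower genes, against 2.04%. Since the rule and this overlap read the same libraries, the count is a description. Of the shared genes, 39 of the 58 and 51 of the 83 also passed the test of a difference among the 4 inhibitors, which 52.2% of all genes passed.

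The shared higher genes included the myelin gene *Mbp*. *Mbp*, which encodes myelin basic protein, was at 15.9, 16.1 and 14.3 CPM with DMSO, 21.2, 20.5 and 20.5 with defactinib, 29.1, 30.1 and 29.2 with VS-4718, 21.5, 18.7 and 20.2 with GSK2256098 and 17.9, 20.3 and 20.6 with IN10018. All treated libraries exceeded the DMSO libraries, and those with VS-4718 exceeded all others. The log2 fold changes were 0.43 with defactinib, 0.93 with VS-4718, 0.38 with GSK2256098 and 0.35 with IN10018 (SE 0.063, 0.059, 0.064 and 0.064; edgeR adjusted p = 2.61e-06, 5.47e-16, 3.99e-05 and 0.00022). The other inhibitors did not differ at the threshold on *Mbp*, with −0.045 (95% interval −0.17 to 0.078, edgeR adjusted p = 0.645) for GSK2256098 against defactinib, −0.08 (95% interval −0.21 to 0.045, edgeR adjusted p = 0.369) for IN10018 against defactinib and −0.036 (95% interval −0.16 to 0.091, edgeR adjusted p = 0.731) for IN10018 against GSK2256098. *Cnp*, a phosphodiesterase of noncompact myelin, rose with log2 fold changes of 0.32 with defactinib, 0.81 with VS-4718, 0.32 with GSK2256098 and 0.21 with IN10018.

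*Prelp* (GRCm38 chr1:133910304-133921414, minus strand), a leucine-rich proteoglycan that anchors basement membranes, was at 4.03, 4.17 and 3.87 CPM with DMSO, 8.81, 9.73 and 10.4 with defactinib, 10.8, 8.73 and 9.76 with VS-4718, 7.95, 7.46 and 8.77 with GSK2256098 and 5.35, 4.40 and 6.00 with IN10018. Levels were highest with defactinib and VS-4718 and rose less with IN10018, whose lowest library was just above the highest DMSO library. Its log2 fold changes were 1.26 with defactinib, 1.28 with VS-4718, 1.00 with GSK2256098 and 0.39 with IN10018, with an edgeR adjusted p of 0.0373 for IN10018. Its 4 calls were not all kept without each DMSO library in turn, without IN10018 replicate 1 or 3, or with limma. IN10018 differed from defactinib by −0.88 (95% interval −1.09 to −0.66, edgeR adjusted p = 3.51e-08) on the log2 scale.

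*Synpo*, an actin-bundling protein, was at 15.9, 16.3 and 16.5 CPM with DMSO, 19.0, 19.8 and 20.5 with defactinib, 44.2, 41.9 and 39.5 with VS-4718, 28.7, 31.5 and 31.6 with GSK2256098 and 19.8, 20.2 and 21.2 with IN10018. Its log2 fold changes were 0.28 with defactinib, 1.36 with VS-4718, 0.91 with GSK2256098 and 0.33 with IN10018. GSK2256098 exceeded defactinib by 0.63 (95% interval 0.51 to 0.74, edgeR adjusted p = 2e-11), and IN10018 and defactinib differed by 0.044 (95% interval −0.08 to 0.17, edgeR adjusted p = 0.655). *Tns1*, a tensin that links integrin tails to actin, had log2 fold changes of 0.39 with defactinib, 1.05 with VS-4718, 0.64 with GSK2256098 and 0.18 with IN10018. *Ptms*, which encodes the acidic nuclear protein parathymosin, was at means of 243 ± 15.8 CPM (SD, n = 3) with DMSO and 320.0 ± 24.4, 530.1 ± 38.0, 355 ± 28.5 and 311 ± 13.5 CPM with defactinib, VS-4718, GSK2256098 and IN10018. IN10018 and defactinib differed on it by −0.04 (95% interval −0.16 to 0.077, edgeR adjusted p = 0.667).

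For 4 further shared higher genes, the F test among inhibitors did not pass. *H1fx*, a linker histone, had log2 fold changes of 0.38 with defactinib, 0.62 with VS-4718, 0.52 with GSK2256098 and 0.38 with IN10018, *Pou6f1*, a POU-domain transcription factor, of 0.44 with defactinib, 0.37 with VS-4718, 0.38 with GSK2256098 and 0.55 with IN10018, and *Capn5*, a calpain protease, of 0.55 with defactinib, 0.51 with VS-4718, 0.44 with GSK2256098 and 0.32 with IN10018. *Zc3h12a*, the RNase Regnase-1 that degrades inflammatory mRNAs, had 0.30 with defactinib, 0.50 with VS-4718, 0.47 with GSK2256098 and 0.43 with IN10018. The edgeR F test gave these 4 genes, in that order, an adjusted p of 0.155, 0.383, 0.0704 and 0.277, although for *Capn5* the pair of IN10018 and defactinib differed by −0.23 (95% interval −0.40 to −0.069, edgeR adjusted p = 0.0277). *Medag*, named for its role in adipocyte maturation, had 0.37 with defactinib, 1.07 with VS-4718, 0.57 with GSK2256098 and 0.40 with IN10018. *Fsd1*, a microtubule-associated protein, had 0.37 with defactinib, 0.58 with VS-4718, 0.43 with GSK2256098 and 0.32 with IN10018. The calls of *Fsd1* with all 4 inhibitors held in 3 of 22 alternative settings.

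**Figure D1:**
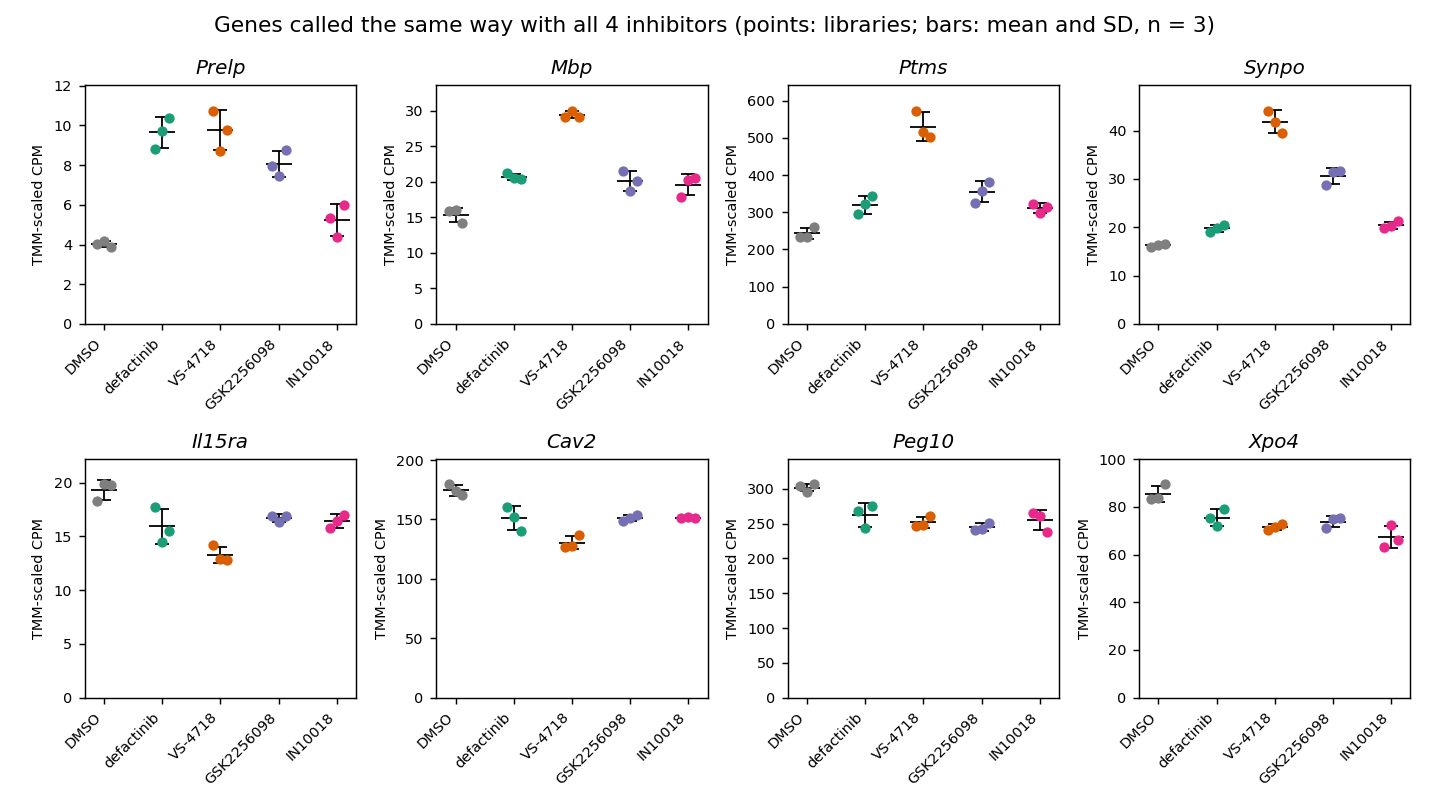
TMM-scaled CPM of 8 genes called in the same direction with all 4 inhibitors, for 3 libraries per group (points), with the mean and SD (bars, n = 3). The upper row holds genes that were higher than DMSO and the lower row genes that were lower, with VS-4718 farthest from DMSO for *Mbp*, *Ptms*, *Synpo*, *Il15ra* and *Cav2*.

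Among the shared lower genes, *Cav2*, which encodes caveolin-2 of plasma membrane caveolae, was at 179.6, 174 and 170.2 CPM with DMSO, 160.4, 152 and 141 with defactinib, 127, 128 and 136 with VS-4718, 148, 152 and 154 with GSK2256098 and 151, 152 and 151 with IN10018. No treated library reached the DMSO range. Its log2 fold changes were −0.21 with defactinib, −0.42 with VS-4718, −0.21 with GSK2256098 and −0.20 with IN10018, and IN10018 and defactinib differed by 0.0048 (95% interval −0.081 to 0.09, edgeR adjusted p = 0.953). *Peg10*, an imprinted gene of retrotransposon origin, was at 303, 295 and 306 CPM with DMSO, 268, 243 and 276 with defactinib, 246, 247 and 261 with VS-4718, 241, 242 and 251 with GSK2256098 and 266, 260.2 and 238 with IN10018. The 4 responses were close to one another, with log2 fold changes of −0.20 with defactinib, −0.26 with VS-4718, −0.30 with GSK2256098 and −0.24 with IN10018 (edgeR F test, adjusted p = 0.165). *Il15ra*, the receptor subunit that presents interleukin-15, ranked first among the 74 shared lower genes that could be named, by the smallest of the 4 changes, with log2 fold changes of −0.28 with defactinib, −0.54 with VS-4718, −0.21 with GSK2256098 and −0.24 with IN10018, but its 4 calls held in 12 of 22 settings.

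*Rrm2*, the small subunit of ribonucleotide reductase, which supplies deoxynucleotides for DNA synthesis, was at 257, 253 and 252 CPM with DMSO, 229.5, 225 and 233 with defactinib, 188, 189 and 191 with VS-4718, 224, 228 and 234 with GSK2256098 and 234, 227 and 226 with IN10018. The libraries of defactinib, GSK2256098 and IN10018 were interleaved below DMSO, and those of VS-4718 were below all of them. Log2 fold changes were −0.15 with defactinib, −0.42 with VS-4718, −0.15 with GSK2256098 and −0.15 with IN10018, and IN10018 differed from defactinib by −0.00097 (95% interval −0.057 to 0.055, edgeR adjusted p = 0.986). *Usp24*, a deubiquitinase, changed by −0.16 with defactinib, −0.27 with VS-4718, −0.18 with GSK2256098 and −0.18 with IN10018, and *Nme2*, a nucleoside diphosphate kinase, by −0.27 with defactinib, −0.54 with VS-4718, −0.34 with GSK2256098 and −0.20 with IN10018. *Xpo4*, a nuclear exportin, had its largest change with IN10018, with −0.18 with defactinib, −0.26 with VS-4718, −0.21 with GSK2256098 and −0.35 with IN10018. The other named genes were *Ddx31*, an RNA helicase, *Zfp280d*, a zinc finger protein, *Trmt10a*, a tRNA methyltransferase, and *Secisbp2*, which is needed for selenocysteine incorporation, with changes between −0.40 and −0.15. Of the 20 named shared genes, 7 (*Ptms*, *Mbp*, *Synpo*, *Cav2*, *Peg10*, *Xpo4* and *Usp24*) kept all 4 calls in each of 22 settings.

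Several of the 83 shared lower genes encode proteins of the nucleolus and of transport between nucleus and cytoplasm. Because these groups were noticed after the values were seen, they were counted as lists and not tested. The ribosome assembly list held genes of the Nop, Polr1, Rrp and Utp families by symbol. It also held single genes outside these families, among them *Ncl*, *Nolc1*, *Mybbp1a*, *Heatr1* and *Npm1*. Of 39 ribosome assembly genes, 15, 20, 12 and 16 were lower and 0, 1, 1 and 2 were higher with defactinib, VS-4718, GSK2256098 and IN10018, respectively, with median log2 fold changes of −0.081, −0.12, −0.069 and −0.068, beside medians of all genes within 0.0048 of 0. The members lower with all 4 were *Ncl*, *Nolc1*, *Mybbp1a* and *Heatr1*, each of them 1 of the single genes. *Ncl*, which encodes the nucleolar protein nucleolin, was at 3328, 3269 and 3247 CPM with DMSO, 3049, 2876 and 2950.0 with defactinib, 2414, 2438 and 2602 with VS-4718, 2939, 3006 and 3028 with GSK2256098 and 3115, 3081 and 3076 with IN10018. Treated libraries lay below DMSO throughout. Log2 fold changes were −0.15 with defactinib, −0.40 with VS-4718, −0.13 with GSK2256098 and −0.086 with IN10018. *Heatr1*, a factor of small subunit processing, had its largest change with IN10018, with −0.10 with defactinib, −0.18 with VS-4718, −0.18 with GSK2256098 and −0.30 with IN10018, and IN10018 differed from VS-4718 by −0.12 (95% interval −0.19 to −0.053, edgeR adjusted p = 0.00473). *Npm1*, the nucleolar chaperone nucleophosmin, was lower with defactinib, VS-4718 and GSK2256098, with log2 fold changes of −0.26, −0.61 and −0.16, whereas its value with IN10018 was −0.01.

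Of 41 tested genes of nuclear transport, 18, 23, 13 and 17 were lower and 2, 6, 0 and 0 were higher in the same order of inhibitors, beside 11.0%, 18.9%, 6.09% and 6.85% of all genes lower and 11.4%, 20.4%, 6.36% and 6.44% higher, with medians of −0.065, −0.084, −0.072 and −0.082. *Xpo4*, *Tnpo1*, *Kpna3*, *Ipo11* and *Nup205*, which encode carriers and a nuclear pore subunit, were lower with all 4. Over 22 settings, the number of transport genes that were lower ranged from 11 to 20 with defactinib, 18 to 24 with VS-4718, 6 to 15 with GSK2256098 and 10 to 20 with IN10018. The lowest counts came without DMSO replicate 2 for defactinib, without IN10018 replicate 1 for IN10018 and without GSK2256098 replicate 1 for GSK2256098. VS-4718 gave 2 higher without DMSO replicate 1. Ribosome assembly genes lower with IN10018 fell from 16 to 10 without DMSO replicate 1. Of 26 DNA replication genes, only *Rrm2* was lower with all 4, while 14, 14, 2 and 3 were lower and 1, 3, 1 and 1 higher in that order, so that the lower count with GSK2256098 was near the 6.09% of all genes. With library totals, 8 DNA replication genes were lower and 6 higher with VS-4718. For 24 mitosis genes, 5, 11, 0 and 4 were lower, beside 11.0%, 18.9%, 6.09% and 6.85% of all genes, and 1 was higher with each inhibitor. The lower counts fell to 3 with defactinib and to 2 with IN10018 without replicate 3 of each.

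At the same dose and time, the inhibitors differed from one another at more genes than they shared. The 6 pairs were compared with P values adjusted over all genes and pairs together. The most distant pair was IN10018 and VS-4718, with 6182 genes (38.5%), followed by IN10018 and defactinib with 5346 (33.3%), VS-4718 and defactinib with 5279 (32.9%), GSK2256098 and VS-4718 with 4389 (27.3%) and IN10018 and GSK2256098 with 3606 (22.4%). GSK2256098 and defactinib were closest, with 2470 genes (15.4%). Differences of at least 2-fold were fewer, at 365 genes for IN10018 and VS-4718 and 66 for GSK2256098 and defactinib. For defactinib and IN10018, which share a substituted pyrimidine and differ in the linkage beyond it, 163 genes differed by at least 2-fold, 567 genes were called in opposite directions against DMSO, and the median size of the difference was 0.17 over all genes on the log2 scale. Of the 141 shared genes, 25 differed between this pair, as did 21 between GSK2256098 and defactinib, compared with 86 between IN10018 and VS-4718.

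**Figure D2:**
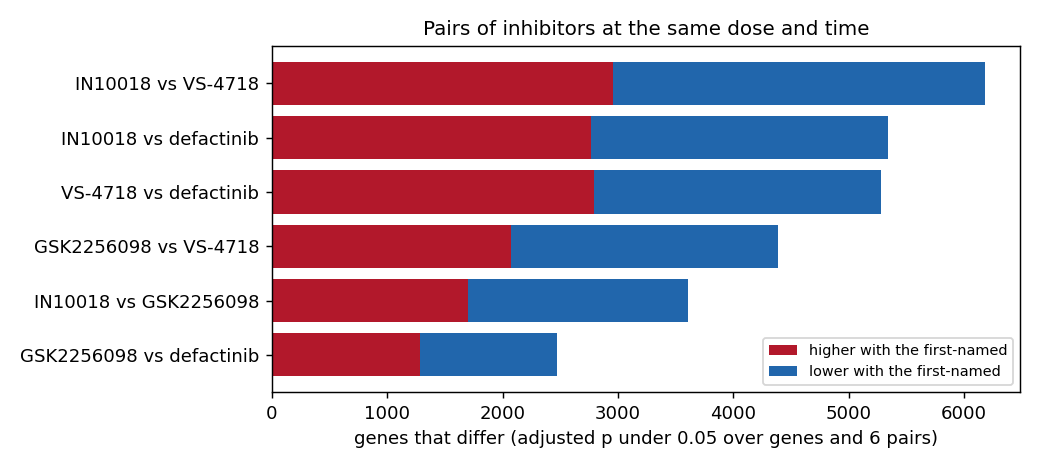
Number of genes that differed between each pair of inhibitors (edgeR, adjusted p under 0.05 over 16070 genes and 6 pairs), split by whether the gene was higher or lower with the first-named inhibitor. The pair of IN10018 and VS-4718 gave 6182 genes and the pair of GSK2256098 and defactinib 2470.

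For each of the 8390 genes that split the inhibitors, the inhibitor farthest from the mean of the other three was VS-4718 for 40.1% of genes, IN10018 for 35.8%, defactinib for 20.5% and GSK2256098 for 3.59%. Calls in opposite directions against DMSO were made for 994 genes (6.19%). In 149 of them IN10018 stood alone against the other 3, with 72 higher and 77 lower. Of the 12 genes with the largest range over the 4 inhibitors, 6 were on the list of ATF4 stress genes and 2 on that of hypoxia-induced genes, as described next.

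Hypoxia-induced genes were mostly higher with IN10018 and were lower with VS-4718 and GSK2256098, while part of them were lower with defactinib. Their transcription is driven by hypoxia-inducible factors (HIFs), whose alpha subunits are degraded when oxygen is available and otherwise bind a short element with the core RCGTG. Of the 17 genes on the list, 17 were lower with VS-4718, 17 with GSK2256098 and 11 with defactinib, whereas 16 were higher with IN10018. The median log2 fold change of the list was −0.65, −0.27, −0.19 and 0.36, respectively, and all 17 genes passed the F test among inhibitors. In single libraries the list's median was −0.62 to −0.77 with VS-4718, −0.24 to −0.31 with GSK2256098, −0.17 to −0.20 with defactinib and 0.33 to 0.38 with IN10018, compared with −0.01 to 0.02 with DMSO. Every member was higher with IN10018 than with each of the others in the pair tests, 17 of 17 in all 3 pairs. Over 22 settings, the number of members called ranged from 14 to 16 higher with IN10018, from 15 to 17 lower with GSK2256098 and from 9 to 12 lower with defactinib, and was 17 with VS-4718 throughout.

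*Bnip3* (GRCm38 chr7:138890836-138909519, minus strand), a mitophagy receptor, was at 105, 100.2 and 93.9 CPM with DMSO, 77.3, 76.3 and 73.8 with defactinib, 40.5, 41.3 and 40.03 with VS-4718, 71.8, 72.8 and 72.1 with GSK2256098 and 164, 158 and 162 with IN10018. No 2 groups overlapped, and defactinib and GSK2256098 were adjacent. The log2 fold changes were −0.40 with defactinib, −1.30 with VS-4718, −0.46 with GSK2256098 and 0.69 with IN10018 (SE 0.039, 0.041, 0.039 and 0.037; edgeR adjusted p = 6.23e-10, 2.37e-25, 1.38e-11 and 5.78e-17). IN10018 differed from defactinib by 1.09 (95% interval 1.01 to 1.17, edgeR adjusted p = 6.44e-24), while GSK2256098 and defactinib differed by −0.069 (95% interval −0.15 to 0.012, edgeR adjusted p = 0.211). *Ndrg1*, a stress-induced regulator of lipid metabolism and of myelin maintenance in SCs, was at 65.4, 66.5 and 65.4 CPM with DMSO, 45.9, 44.6 and 45.2 with defactinib, 38.1, 39.4 and 38.7 with VS-4718, 52.0, 50.7 and 46.6 with GSK2256098 and 126, 122 and 128 with IN10018. It was higher than DMSO in every IN10018 library and lower in every library of the others. IN10018 and defactinib differed on *Ndrg1* by 1.47 (95% interval 1.39 to 1.56, edgeR adjusted p = 3.29e-27).

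*Car9*, the hypoxia-induced carbonic anhydrase IX, was at 27.4, 25.2 and 24.5 CPM with DMSO, 27.3, 28.3 and 23.5 with defactinib, 13.4, 14.7 and 13.6 with VS-4718, 22.3, 22.7 and 21.4 with GSK2256098 and 45.9, 41.4 and 45.02 with IN10018. Defactinib overlapped DMSO on this gene, with a log2 fold change of 0.035 (edgeR adjusted p = 0.743), compared with −0.88, −0.21 and 0.78 with VS-4718, GSK2256098 and IN10018. *Pdk1*, which diverts pyruvate from the mitochondrion, had a value of −0.065 with defactinib (edgeR adjusted p = 0.328) and changed by −0.90, −0.27 and 0.70 with the other three. *Ankrd37*, an ankyrin repeat protein, changed by −1.24, −0.60 and 0.76 with these, and its value with defactinib was −0.21 (edgeR adjusted p = 0.141). *Ldha*, which makes lactate from pyruvate, had log2 fold changes of −0.27 with defactinib, −0.56 with VS-4718, −0.24 with GSK2256098 and 0.22 with IN10018, and *Eno1* had −0.19 with defactinib, −0.43 with VS-4718, −0.24 with GSK2256098 and 0.09 with IN10018. *Vegfa*, the angiogenic growth factor, had −0.88, −0.30 and 0.43 with VS-4718, GSK2256098 and IN10018, with −0.038 for defactinib, which was not called.

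The promoter windows of RefSeq (GRCm38.p6, 250 bases before to 50 bases after the start) were searched for ACGTG and GCGTG on both strands. A match was found in 13 of the 15 list members with a window (86.7%) and in 43.8% of all 27025 windows. The stretches from 210 to 40 bases before the start are shown for *Bnip3* and *Ankrd37*, which had the largest ranges on the list, with matches in capitals.
*Bnip3* (chr7:138909546-138909716, minus strand): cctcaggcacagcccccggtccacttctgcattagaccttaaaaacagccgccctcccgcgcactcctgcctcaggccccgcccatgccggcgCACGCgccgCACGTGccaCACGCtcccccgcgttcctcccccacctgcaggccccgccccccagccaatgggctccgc
*Ankrd37* (chr8:45999890-46000060, minus strand): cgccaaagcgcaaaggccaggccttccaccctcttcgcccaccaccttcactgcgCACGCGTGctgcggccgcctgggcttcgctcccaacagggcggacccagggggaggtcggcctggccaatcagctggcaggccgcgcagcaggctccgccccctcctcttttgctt
*Bnip3* held 4 matches within this stretch, some of them overlapping, and *Ankrd37* held 2, on opposite strands of 1 overlapping run. A match is a description of the letters and does not show binding. The list was made of genes known to be induced by hypoxia, so its share of matches describes the list and not the inhibitors.

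The amino acid stress response separated VS-4718 and GSK2256098 from the other two. ATF4 is a transcription factor whose translation increases when eIF2α is phosphorylated, and its targets import and make amino acids, support glutathione synthesis and, under lasting stress, promote cell death. Of 27 genes on this list, 25 were lower with VS-4718 and 24 with GSK2256098, with medians of −0.78 and −0.41. With defactinib, 13 were higher and 7 lower (median 0.10), and with IN10018, 16 were higher and 1 was lower (median 0.20). In single libraries the median of the 26 members with at least 5 CPM on average was −0.76 to −0.82 with VS-4718, −0.37 to −0.42 with GSK2256098, 0.10 to 0.13 with defactinib and 0.17 to 0.18 with IN10018. Of the 27 genes, 24 were higher with GSK2256098 than with VS-4718 and 0 were lower. Defactinib and IN10018 differed at 17 genes, 11 of them higher and 6 lower with IN10018.

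*Slc7a11*, the cystine transporter that feeds glutathione synthesis, was at 31.3, 29.8 and 29.7 CPM with DMSO, 39.8, 40.4 and 39.7 with defactinib, 4.95, 5.24 and 5.39 with VS-4718, 14.6, 12.8 and 14.9 with GSK2256098 and 34.9, 36.9 and 37.6 with IN10018. The VS-4718 libraries were the lowest, while defactinib and IN10018 exceeded every DMSO library. Its log2 fold changes were 0.40 with defactinib, −2.54 with VS-4718, −1.10 with GSK2256098 and 0.27 with IN10018 (SE 0.052, 0.071, 0.06 and 0.053; edgeR adjusted p = 2.12e-07, 5.89e-27, 7.87e-17 and 0.000408), and the difference between IN10018 and defactinib was −0.13 (95% interval −0.24 to −0.028, edgeR adjusted p = 0.0508). *Chac1*, a glutathione-degrading enzyme, was at 23.3, 25.1 and 21.9 CPM with DMSO, 16.4, 20.1 and 17.8 with defactinib, 3.77, 3.23 and 2.89 with VS-4718, 11.6, 11.4 and 11.8 with GSK2256098 and 38.2, 35.5 and 37.5 with IN10018. It was below DMSO with 3 inhibitors and above it with IN10018, with log2 fold changes of −0.38 with defactinib, −2.83 with VS-4718, −1.02 with GSK2256098 and 0.66 with IN10018. *Trib3*, a pseudokinase induced by ATF4 and CHOP, followed the same order, with −0.29 with defactinib, −2.61 with VS-4718, −0.95 with GSK2256098 and 0.59 with IN10018.

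With defactinib the 13 higher members ranged from 0.10 for *Aldh18a1*, of proline synthesis, to 0.58 for *Pck2*, mitochondrial PEP carboxykinase, on the log2 scale, and included *Slc6a9*, a glycine transporter (0.40), and *Asns*, asparagine synthetase (0.21). The 7 lower members were *Ddit3*, *Ddit4*, *Chac1*, *Trib3*, *Nupr1*, *Phgdh* and *Atf4*. *Ddit3*, which encodes the proapoptotic factor CHOP, *Ddit4*, an mTORC1 inhibitor, *Chac1* and *Trib3* had −0.55, −0.53, −0.38 and −0.29. With IN10018 the same 4 were higher, by 0.58, 0.78, 0.66 and 0.59. *Ddit4*, which is induced by hypoxia as well as by ATF4, was at 159.9, 151 and 144 CPM with DMSO, 100.5, 106 and 108 with defactinib, 34.3, 37.2 and 33.7 with VS-4718, 82.0, 76.6 and 76.4 with GSK2256098 and 257, 252 and 270.3 with IN10018. No 2 of the 5 groups overlapped. *Atf4* mRNA itself had log2 fold changes of −0.10 with defactinib, −0.82 with VS-4718, −0.41 with GSK2256098 and 0.14 with IN10018. *Nupr1*, a stress-induced chromatin protein, and *Aldh1l2*, a mitochondrial folate enzyme that is not on the list, also split the inhibitors, with −0.25 with defactinib, −1.29 with VS-4718, −0.68 with GSK2256098 and 0.49 with IN10018 for the former and 0.20 with defactinib, −1.51 with VS-4718, −0.68 with GSK2256098 and 0.27 with IN10018 for the latter.

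The C/EBP-ATF element TGATGNAAN was searched on both strands of the same windows. It was found in 7 of the 25 list members with a window (28.0%) and in 4.04% of all windows. The stretches from 210 to 40 bases before the start are shown for *Chac1* and *Slc7a11*, the members with the first and the third largest range, with matches in capitals. The 1 match in the window of *Trib3*, which was second, lay outside this stretch.
*Chac1* (chr2:119351032-119351202, plus strand): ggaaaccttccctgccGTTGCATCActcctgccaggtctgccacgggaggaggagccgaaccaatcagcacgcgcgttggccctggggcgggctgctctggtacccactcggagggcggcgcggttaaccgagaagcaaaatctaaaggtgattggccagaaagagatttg
*Slc7a11* (chr3:50443653-50443823, minus strand): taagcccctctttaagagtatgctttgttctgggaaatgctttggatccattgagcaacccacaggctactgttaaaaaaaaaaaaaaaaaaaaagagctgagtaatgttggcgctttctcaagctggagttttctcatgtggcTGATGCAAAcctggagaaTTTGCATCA
*Chac1* held 1 match on the opposite strand and *Slc7a11* held 2 that face each other. The letters do not show binding. The list was made of known ATF4 stress genes, so its share of matches describes the list and not the inhibitors.

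**Figure D3:**
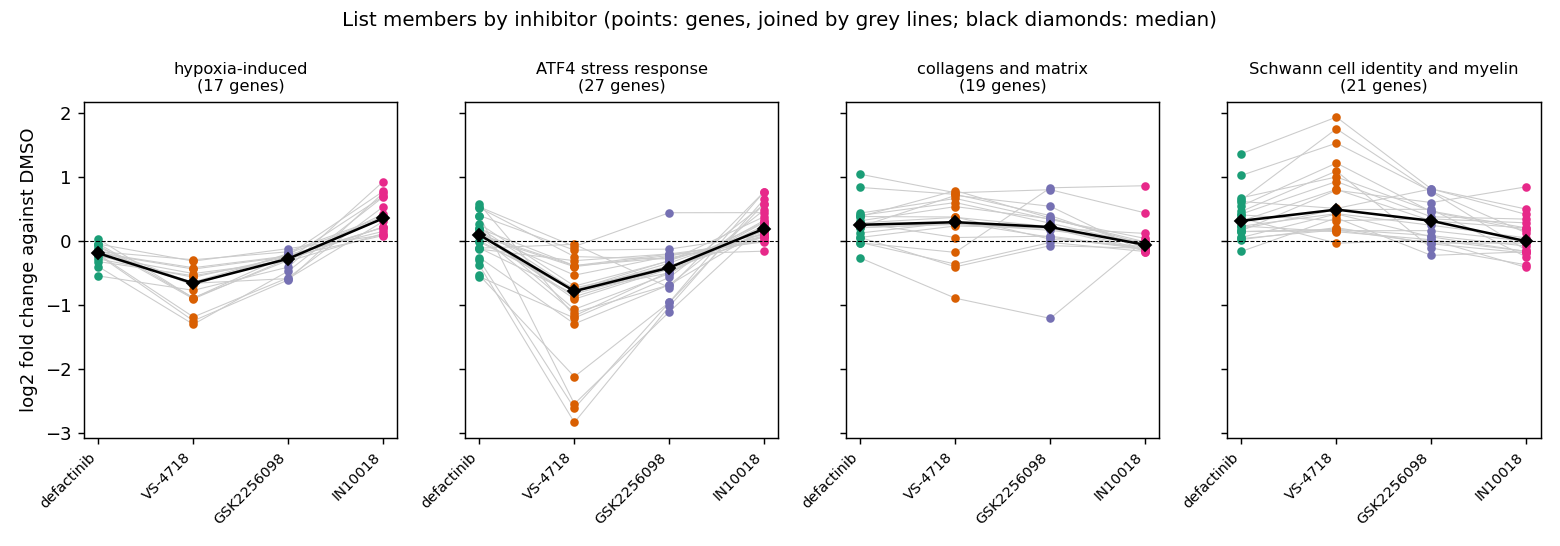
Log2 fold change against DMSO of each tested member of 4 gene lists (points, joined by grey lines for the same gene) with each inhibitor, with the list's median (black diamonds). The median of the hypoxia list was −0.65 with VS-4718 and 0.36 with IN10018, and that of the matrix list was 0.30 with VS-4718 and −0.054 with IN10018.

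Further genes divided IN10018 from the rest. *Cdkn1a*, which encodes the cyclin-dependent kinase inhibitor p21, was at 15.7, 16.6 and 15.7 CPM with DMSO, 9.16, 10.4 and 10.4 with defactinib, 7.28, 8.87 and 7.86 with VS-4718, 10.8, 10.9 and 9.54 with GSK2256098 and 28.9, 24.5 and 28.1 with IN10018. It was lower than DMSO in all 9 libraries of defactinib, VS-4718 and GSK2256098 and higher in all 3 of IN10018. The log2 fold changes were −0.68 with defactinib, −1.005 with VS-4718, −0.62 with GSK2256098 and 0.76 with IN10018, and defactinib and GSK2256098 differed by 0.058 (95% interval −0.13 to 0.25, edgeR adjusted p = 0.699). Of 15 p53 targets, 6, 2, 3 and 2 were lower and 0, 4, 0 and 3 were higher with defactinib, VS-4718, GSK2256098 and IN10018, beside 11.0%, 18.9%, 6.09% and 6.85% of all genes lower and 11.4%, 20.4%, 6.36% and 6.44% higher, so that both counts with VS-4718 were near the background. *Atf3*, an immediate-early stress factor, had −0.79 with defactinib, −1.07 with VS-4718, −0.82 with GSK2256098 and 0.39 with IN10018, and *Bhlhe40*, a repressor of the clock that is also hypoxia-induced, had −0.56 with defactinib, −1.75 with VS-4718, −0.67 with GSK2256098 and 0.49 with IN10018. *Ciart*, a circadian repressor that was not called with defactinib, had −0.25 with defactinib, −1.34 with VS-4718, −0.61 with GSK2256098 and 0.49 with IN10018. Of 14 AP-1 and immediate-early genes, 5, 5, 2 and 0 were lower and 1, 5, 1 and 5 were higher in that order of inhibitors, where 1 of 14 is near or below the same shares of all genes.

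**Figure D4:**
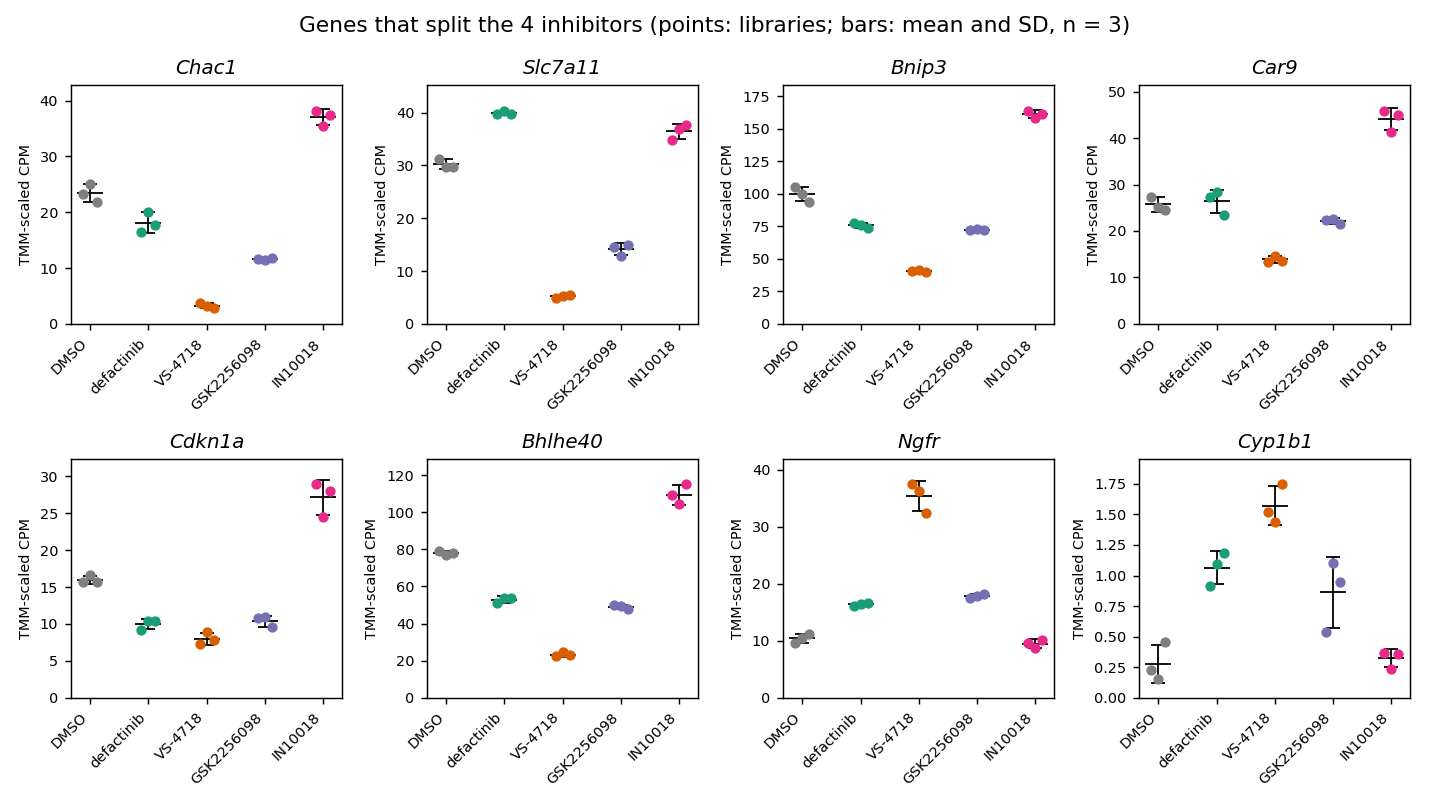
TMM-scaled CPM of 8 genes that differed among the inhibitors, for 3 libraries per group (points), with the mean and SD (bars, n = 3). *Chac1*, *Bnip3*, *Car9*, *Cdkn1a* and *Bhlhe40* were above every DMSO library with IN10018 and below with VS-4718, and *Ngfr* and *Cyp1b1* were raised with the other inhibitors and not with IN10018.

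Extracellular matrix genes called with defactinib, VS-4718 or GSK2256098 were mostly higher. Of 19 collagen and matrix genes, 14 were higher with defactinib, 14 with VS-4718, where 2 were lower, and 10 with GSK2256098, whereas 0 were higher and 5 were lower with IN10018. The medians were 0.26, 0.30, 0.22 and −0.054. In the pair tests, IN10018 was lower than defactinib at 15 genes and higher at 0. *Fn1*, which encodes fibronectin, a ligand of the integrins that activate FAK, was at 1091, 1104 and 1085 CPM with DMSO, 1379, 1403 and 1515 with defactinib, 1903, 1939 and 1839 with VS-4718, 1370.0, 1428 and 1426 with GSK2256098 and 1035, 1057 and 1092 with IN10018. Levels with IN10018 overlapped DMSO and all others exceeded it. Its log2 fold changes were 0.39 with defactinib, 0.79 with VS-4718, 0.36 with GSK2256098 and −0.043 with IN10018 (SE 0.037, 0.038, 0.037 and 0.037; edgeR adjusted p = 4.62e-10, 8.55e-20, 2.79e-09 and 0.517). *Col6a1*, a chain of the beaded-filament collagen VI, had 0.84 with defactinib, 0.73 with VS-4718, 0.40 with GSK2256098 and −0.10 with IN10018, with IN10018 differing from defactinib by −0.94 (95% interval −1.09 to −0.79, edgeR adjusted p = 4.34e-13). *Col4a1* and *Col4a2*, the basement membrane collagens, rose by 0.41, 0.61 and 0.28 and by 0.44, 0.67 and 0.34 with defactinib, VS-4718 and GSK2256098. *Col1a2* went the other way with VS-4718 (−0.36) and IN10018 (−0.16), and *Timp1*, a metalloprotease inhibitor, with VS-4718 (−0.40). *Col6a2* was scarce, at 0.759 CPM with DMSO, and its call for the mean of the 4 inhibitors was lost without DMSO replicate 2 or 3.

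Integrins and laminins, the receptors and basement membrane ligands above FAK, were also mostly higher with defactinib and VS-4718. Fewer were higher with GSK2256098. Of 19 genes, 13, 13 and 6 were higher and 0, 1 and 1 lower with defactinib, VS-4718 and GSK2256098, and 0 were higher and 7 lower with IN10018. *Itgb5* had log2 fold changes of 0.39 with defactinib, 0.52 with VS-4718, 0.23 with GSK2256098 and 0.017 with IN10018, and *Lama4* had 0.61 with defactinib, 0.82 with VS-4718, 0.36 with GSK2256098 and −0.052 with IN10018. *Itgb1*, the common beta subunit, had 0.17 with defactinib, 0.11 with VS-4718, 0.065 with GSK2256098 and −0.13 with IN10018, and was called higher with defactinib and VS-4718 and lower with IN10018. *Itga6*, a laminin receptor subunit, was lower with VS-4718, GSK2256098 and IN10018, with 0.039 with defactinib, −0.35 with VS-4718, −0.18 with GSK2256098 and −0.18 with IN10018. Over the alternative settings, integrins and laminins lower with IN10018 numbered 4 to 7 and those higher with GSK2256098 numbered 2 to 7. The lowest values came without DMSO replicate 2 or IN10018 replicate 2 for the former and without GSK2256098 replicate 3 for the latter. Of 14 receptor tyrosine kinases, 11, 9, 6 and 1 were higher, beside 11.4%, 20.4%, 6.36% and 6.44% of all genes, and 0, 4, 1 and 3 were lower, beside 11.0%, 18.9%, 6.09% and 6.85%, so that the 1 higher with IN10018 and the 1 lower with GSK2256098 were at background. Among them *Pdgfrb* had 0.54 with defactinib, 0.67 with VS-4718, 0.29 with GSK2256098 and −0.014 with IN10018, *Ddr1*, a collagen receptor, had 0.31 with defactinib, 0.67 with VS-4718, 0.35 with GSK2256098 and 0.071 with IN10018, and *Fgfr1* had 0.49 with defactinib, 0.50 with VS-4718, 0.24 with GSK2256098 and 0.052 with IN10018. *Met*, the receptor of hepatocyte growth factor, had −0.055 with defactinib, −0.25 with VS-4718, −0.10 with GSK2256098 and −0.23 with IN10018, and was not called with defactinib.

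Where called, genes of SC identity were higher with VS-4718, defactinib and GSK2256098. Of 21 tested genes of the SC and myelin list, 17, 11 and 10 were higher with these and 0 lower, whereas 2 were higher and 3 lower with IN10018. The 10 with GSK2256098 fell to 6 without its replicate 3, and the 3 lower with IN10018 to 1 without DMSO replicate 3 or IN10018 replicate 2 or 3. *Sox10* was at 19.7, 20.3 and 20.3 CPM with DMSO, 27.2, 30.4 and 30.9 with defactinib, 48.7, 50.1 and 42.2 with VS-4718, 25.4, 28.7 and 29.0 with GSK2256098 and 22.7, 21.6 and 23.6 with IN10018. Each library of the first 3 inhibitors exceeded all DMSO libraries, as did those of IN10018 by a small margin, and the log2 fold change with IN10018 was 0.17 (edgeR adjusted p = 0.132). *Ngfr*, the p75 neurotrophin receptor of immature SCs, was at 9.63, 10.5 and 11.1 CPM with DMSO, 16.1, 16.4 and 16.6 with defactinib, 37.5, 36.2 and 32.4 with VS-4718, 17.5, 17.9 and 18.2 with GSK2256098 and 9.65, 8.66 and 10.2 with IN10018. Its log2 fold changes were 0.65 with defactinib, 1.76 with VS-4718, 0.77 with GSK2256098 and −0.14 with IN10018, with IN10018 differing from VS-4718 by −1.90 (95% interval −2.04 to −1.75, edgeR adjusted p = 7.03e-23), while GSK2256098 and defactinib differed by 0.13 (95% interval −0.017 to 0.27, edgeR adjusted p = 0.195). *Erbb3*, the neuregulin receptor that SCs require, was at 3.89, 3.50 and 3.05 CPM with DMSO, 6.58, 6.46 and 8.15 with defactinib, 10.9, 9.17 and 10.0 with VS-4718, 5.81, 6.15 and 5.92 with GSK2256098 and 4.29, 3.27 and 3.83 with IN10018, with changes of 1.03 with defactinib, 1.53 with VS-4718, 0.78 with GSK2256098 and 0.13 with IN10018. *L1cam*, an adhesion molecule of immature SCs, had 0.68 with defactinib, 1.01 with VS-4718, 0.47 with GSK2256098 and 0.21 with IN10018. Only *Mbp* and *Cnp* of this list were higher with all 4. *Ncam1*, a neural adhesion molecule, was higher with defactinib (0.36) and lower with IN10018 (−0.15). Summed over 7 SC markers and scaled by library totals, levels were 47.6 to 50.03 CPM with DMSO, 67.9 to 72.4 with defactinib, 106.4 to 119 with VS-4718, 67.6 to 73.7 with GSK2256098 and 45.9 to 49.8 with IN10018. The summed fibroblast markers moved alongside, from 710.5 to 744 CPM with DMSO to 962 to 1009 with VS-4718, through *Col1a1* and *Col3a1*, with *Lum* at 0 and *Dcn* and *Thy1* near 0, and their part in the result was not tested. Fewer cells of a type and less RNA per cell cannot be told apart in these bulk libraries.

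The shares of all tested genes, 20.4% higher and 18.9% lower with VS-4718, 11.4% and 11.0% with defactinib, 6.36% and 6.09% with GSK2256098, and 6.44% and 6.85% with IN10018, are the background for the list counts that follow. Of 23 focal adhesion genes, 20 were higher with VS-4718, 2 with defactinib, 7 with GSK2256098 and 3 with IN10018, while 1, 2, 1 and 1 were lower, and in the pair tests VS-4718 exceeded defactinib at 20 genes and IN10018 at 17. *Bcar1*, a FAK-SRC substrate, had log2 fold changes of −0.089 with defactinib, 0.59 with VS-4718, 0.11 with GSK2256098 and 0.027 with IN10018, *Zyx*, zyxin of stress fibers, had 0.024 with defactinib, 0.47 with VS-4718, 0.20 with GSK2256098 and 0.039 with IN10018, and *Pxn*, paxillin, had 0.045 with defactinib, 0.39 with VS-4718, 0.13 with GSK2256098 and 0.12 with IN10018. Of 15 serum response factor and actin genes, 10, 3, 6 and 2 were higher and 2, 5, 0 and 1 lower with VS-4718, defactinib, GSK2256098 and IN10018. The 6 with GSK2256098 fell to 1 without its replicate 3 and to 3 without its replicate 1 or DMSO replicate 2 or 3. Over the 22 settings, focal adhesion genes higher with IN10018 numbered 1 to 3, with 1 without DMSO replicate 1 or IN10018 replicate 3, and those higher with defactinib 2 to 4, with 4 under library totals, so that both fell on either side of the background. Focal adhesion genes higher with GSK2256098 fell from 7 to 4 without DMSO replicate 1, and YAP and TEAD targets higher with defactinib from 5 to 2 without the same library. For 17 YAP and TEAD targets, 7 were higher and 5 lower with VS-4718, 5 and 3 with defactinib, 4 and 2 with GSK2256098, and 0 and 3 with IN10018. *Ankrd1*, a frequent YAP readout, fell by 0.31, 0.61 and 0.18 on the log2 scale with defactinib, VS-4718 and GSK2256098 and was at −0.016 with IN10018. *Cyr61*, another target, was lower with all 4, with −0.15 with defactinib, −0.078 with VS-4718, −0.14 with GSK2256098 and −0.37 with IN10018, and *Crim1* was higher with 3, with 0.26 with defactinib, 0.62 with VS-4718, 0.26 with GSK2256098 and −0.069 with IN10018.

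Of 17 ERK output genes, 12 were lower and 2 higher with VS-4718, compared with 4 and 3 for defactinib, 6 and 1 for GSK2256098, and 0 and 4 for IN10018, beside 18.9%, 11.0%, 6.09% and 6.85% of all genes lower in the same order. Over the 22 settings, those higher numbered 1 to 3 with defactinib and 2 to 4 with IN10018, beside 11.4% and 6.44% of all genes. *Etv5*, an ETS factor downstream of ERK, was at 58.8, 59.0 and 62.3 CPM with DMSO, 60.7, 57.0 and 63.9 with defactinib, 27.1, 27.8 and 28.0 with VS-4718, 56.5, 55.6 and 55.0 with GSK2256098 and 68.9, 65.0 and 64.5 with IN10018. The VS-4718 libraries were below all others, and GSK2256098 exceeded it by 1.01 (95% interval 0.91 to 1.11, edgeR adjusted p = 2.76e-19). *Etv4* had 0.045 with defactinib, −1.06 with VS-4718, −0.076 with GSK2256098 and 0.076 with IN10018. Of 24 genes of cholesterol synthesis and uptake, 19 were lower with VS-4718, 7 with defactinib, 2 with GSK2256098 and 8 with IN10018, while 3, 5, 1 and 3 were higher. The 2 with GSK2256098 were near the background and ranged from 1 to 3 over the 22 settings, with 1 without DMSO replicate 2 or GSK2256098 replicate 2. *Insig1*, the sterol-regulated ER anchor, had −0.13 with defactinib, −0.66 with VS-4718, −0.067 with GSK2256098 and 0.047 with IN10018. *Scd2*, a stearoyl-CoA desaturase, was at 1481, 1472 and 1485 CPM with DMSO, 1426, 1409 and 1451 with defactinib, 828, 853 and 840.2 with VS-4718, 1418, 1509 and 1524 with GSK2256098 and 1466, 1448 and 1462 with IN10018. VS-4718 was the only inhibitor called against DMSO, and GSK2256098 exceeded VS-4718 by 0.82 (95% interval 0.76 to 0.88, edgeR adjusted p = 5.85e-23). Of 13 fatty acid synthesis genes, 7, 2, 1 and 4 were lower and 1, 5, 1 and 0 higher with VS-4718, defactinib, GSK2256098 and IN10018.

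**Figure D5:**
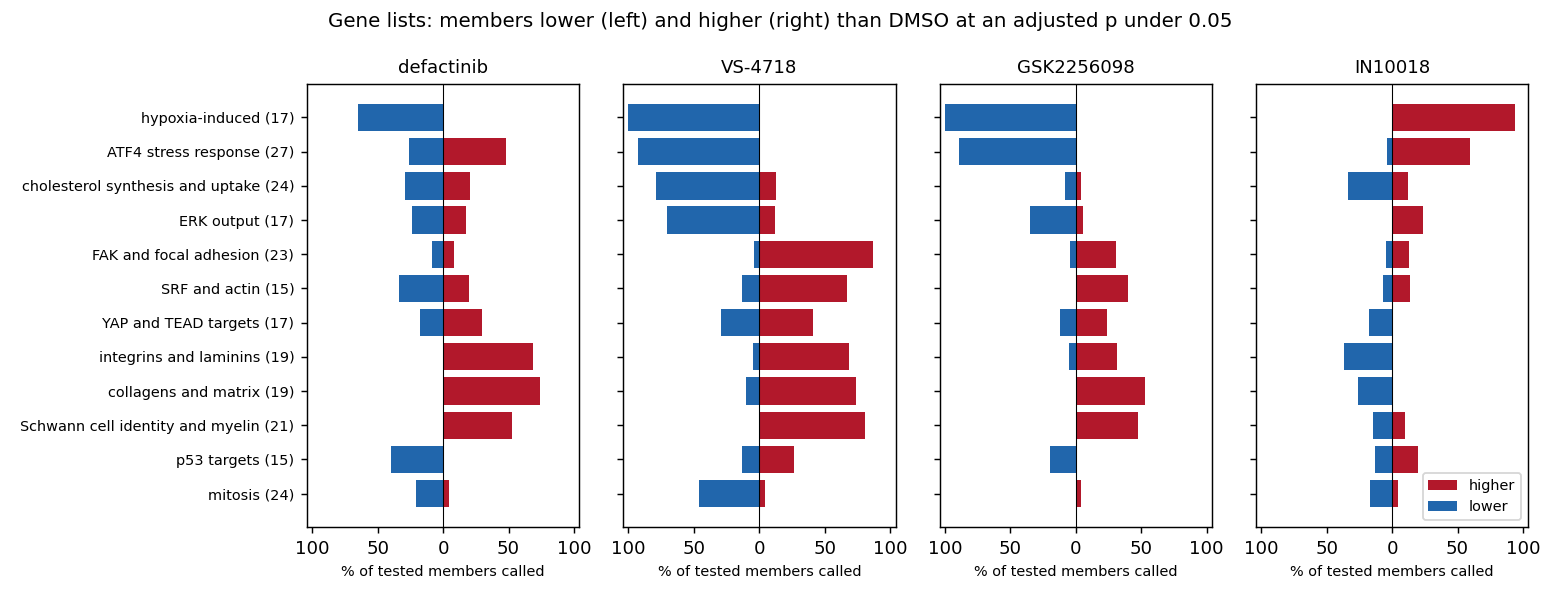
Share of the tested members of 12 gene lists (numbers in parentheses) that were lower (blue, left) or higher (red, right) than DMSO at an adjusted p under 0.05, for each inhibitor. The 17 hypoxia genes were all lower with VS-4718 and GSK2256098 and 16 were higher with IN10018, and 20 of 23 focal adhesion genes were higher with VS-4718.

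Aryl hydrocarbon receptor targets, enzymes of xenobiotic metabolism, were called higher at 2, 4, 4 and 1 of the 7 tested with defactinib, VS-4718, GSK2256098 and IN10018, and lower at 0, 1, 0 and 0. *Aldh3a1*, an aldehyde dehydrogenase, was at 20.2, 19.4 and 19.9 CPM with DMSO, 30.6, 31.4 and 29.5 with defactinib, 49.1, 47.8 and 52.1 with VS-4718, 57.3, 57.8 and 55.2 with GSK2256098 and 24.5, 20.9 and 21.3 with IN10018. GSK2256098 gave the highest values, above VS-4718 by 0.19 (95% interval 0.10 to 0.29, edgeR adjusted p = 0.00172), and the log2 fold change with IN10018 was 0.17 (edgeR adjusted p = 0.0767). *Cyp1b1*, a cytochrome P450 that was scarce with DMSO, was at 0.226, 0.150 and 0.453 CPM with DMSO, 0.916, 1.09 and 1.18 with defactinib, 1.52, 1.44 and 1.75 with VS-4718, 0.536, 1.10 and 0.949 with GSK2256098 and 0.369, 0.237 and 0.361 with IN10018, with log2 fold changes of 1.94 with defactinib, 2.496 with VS-4718, 1.64 with GSK2256098 and 0.23 with IN10018. *Cyp1a1* had 1.75 with VS-4718 and 1.32 with GSK2256098 and was not called with the other two. *Tiparp*, a poly(ADP-ribose) polymerase on the same list, was called lower with VS-4718 (−0.15) and higher with IN10018 (0.15).

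Of 17 NF-κB targets, 4, 10, 6 and 2 were higher and 3, 1, 0 and 2 lower with defactinib, VS-4718, GSK2256098 and IN10018. *Ccl2*, the monocyte chemoattractant, was at 27.1, 26.2 and 27.9 CPM with DMSO, 31.0, 31.8 and 27.9 with defactinib, 35.2, 36.1 and 36.6 with VS-4718, 41.4, 39.9 and 35.5 with GSK2256098 and 23.2, 23.9 and 24.7 with IN10018, and IN10018 differed from GSK2256098 by −0.70 (95% interval −0.82 to −0.59, edgeR adjusted p = 1.7e-12). *Lcn2*, a siderophore-binding acute phase protein, had 1.05 with defactinib, 0.52 with VS-4718, 0.86 with GSK2256098 and 0.15 with IN10018. Of 24 interferon response genes, 7, 8, 3 and 1 were higher and 1, 1, 0 and 0 lower in that order, beside 11.4%, 20.4%, 6.36% and 6.44% of all genes higher. Genes of FOXO and PI3K feedback were mostly higher where they were called, with 7, 9, 4 and 5 of 16 higher and 1, 1, 1 and 0 lower, and *Pik3ip1*, a PI3K inhibitor protein, had 0.58 with defactinib, 0.72 with VS-4718, 0.31 with GSK2256098 and 0.26 with IN10018. Among 15 TGF-β and BMP targets, 1, 5, 2 and 2 were higher and 1 was lower with each, and those higher with IN10018 numbered 0 to 2 over the 22 settings, with 0 without DMSO replicate 3 or IN10018 replicate 3. Of 16 NRF2 targets, 2, 5, 2 and 3 were higher and 4, 1, 1 and 0 lower, and of 12 PPAR and angiopoietin-like genes, 0, 8, 2 and 2 were higher and 2, 1, 2 and 0 lower. Of 13 heat shock chaperones, 6, 6, 3 and 2 were lower and 1, 6, 1 and 0 higher, with *Hspd1*, a mitochondrial chaperonin, lower with all 4 (−0.29 with defactinib, −0.64 with VS-4718, −0.25 with GSK2256098 and −0.12 with IN10018), while *Hspa1b*, inducible HSP70, rose with defactinib and VS-4718, by 0.37 and 1.14.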

How the data were processed

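Poly(A)-selected RNA of MS03 cells was sequenced, and the authors deposited raw counts per gene. The submitters' processing notes name Trimmomatic 0.36, STAR 2.5.2b, featureCounts of Subread 1.5.2 and GRCm38; the annotation release and the strand setting are not given in the sources used here. Counts were analysed as deposited in R 4.3.3 with edgeR 4.0.16 (TMM scaling, filterByExpr, quasi-likelihood test, Benjamini-Hochberg threshold 0.05). Of 49315 genes, 16070 were tested in 24 libraries of 8 groups with 16 residual degrees of freedom. P values for the 6 pairs were adjusted over genes and pairs together. CPM are TMM-scaled, and intervals are 95%. Named shared genes had at least 5 CPM on average and no overlap with DMSO, and were the 10 highest and 10 lowest by the smallest of the 4 changes. The 12 with the largest range, the 8 with the largest opposite changes and up to 4 per list were also named, and further genes were picked with values in view. Alternatives used DESeq2 1.42.0, limma 3.58.1, library totals, no filter, 15 libraries, a replicate block and leaving out each library. Members and lists were chosen with earlier results of these data known. Code was tested on simulated data. Some single genes are not reported here.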

Additional observations from a re-analysis of the deposited data

Results flagged for a closer look

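The following genes were called in opposite directions with different inhibitors, and the difference itself passed the pair test in edgeR, adjusted over all genes and 6 pairs. On the log2 scale, IN10018 exceeded VS-4718 by 3.49 for *Chac1* (adjusted p = 2.71e-28), 3.20 for *Trib3* (adjusted p = 2.46e-30), 2.89 for *Ddit4* (adjusted p = 6.96e-34), 2.24 for *Bhlhe40* (adjusted p = 3.06e-30) and 2.00 for *Ankrd37* (adjusted p = 9.03e-18). Smaller differences between the same inhibitors were 1.99 for *Bnip3* (adjusted p = 2.29e-31), 1.84 for *Ciart* (adjusted p = 7.41e-17), 1.78 for *Nupr1* (adjusted p = 6.52e-21), 1.78 for *Aldh1l2* (adjusted p = 1.1e-27) and 1.78 for *Ddit3* (adjusted p = 3.47e-21). The remaining ones were 1.67 for *Car9* (adjusted p = 1.09e-22), 1.70 for *Ndrg1* (adjusted p = 4.31e-29), 1.77 for *Cdkn1a* (adjusted p = 9.34e-20) and 1.60 for *Pdk1* (adjusted p = 8.56e-27). For *Slc7a11*, defactinib exceeded VS-4718 by 2.94 (adjusted p = 1.58e-29). Since the 15 genes were picked by this separation from DMSO, the adjusted p values belong to pairs chosen as far apart and are a description.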

How the results depend on the processing

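Leaving out 1 library at a time gave 28 to 55 (from 58) genes higher and 39 to 102 (from 83) lower with all 4 inhibitors, 578 to 1028 (from 994) called in opposite directions, 1036 to 1603 (from 1602) higher for the mean of the 4 inhibitors, 1298 to 2128 (from 2001) called with GSK2256098 and 1380 to 2262 (from 2136) with IN10018. The lowest of these counts came without DMSO replicate 2 for shared lower genes, opposite calls and IN10018, without DMSO replicate 3 for the mean, without IN10018 replicate 3 for shared higher genes and without GSK2256098 replicate 3 for GSK2256098. The cause was not tested. Shared lower genes numbered 52 with library totals in place of TMM scaling, where shared higher genes numbered 71, so that the excess of lower genes turned, and 54 without the 2 libraries that stood apart, the latter chosen after seeing the data. Adjusting the largest of the 4 p-values, also chosen then, gave 5 shared higher and 7 shared lower genes, since this asks more of each gene. The other counts stayed within 1.5 times in every setting run (DESeq2, limma on log2(CPM + 4), no filter, 15 libraries alone). Smaller list counts also moved by over 1.5 times without 1 library. Without DMSO replicate 1, NF-κB targets higher with GSK2256098 fell from 6 to 3, matrix genes lower with IN10018 from 5 to 3 and p53 targets lower with defactinib from 6 to 3. Without DMSO replicate 2, cholesterol genes lower with defactinib fell from 7 to 4, and without DMSO replicate 3, interferon genes higher with defactinib fell from 7 to 3. NRF2 targets higher with IN10018 fell from 3 to 0 without IN10018 replicate 3. Replicate numbers did not pair the libraries, with a median correlation of −0.0078 between same-numbered libraries and 1 of 30 above 0.1. Between differently numbered libraries, 12 of 60 were above 0.1, up to 0.27. Among them GSK2256098 replicate 1 had 0.24 with DMSO replicate 2 and 0.21 with IN10018 replicate 2. The replicate block does not account for these. With the replicate block, 53 genes were higher and 74 lower with all 4, 8302 split the inhibitors and 957 were called in opposite directions. Of 133 single-gene differences, between the mean of the 4 inhibitors and DMSO or between 2 inhibitors, 117 kept their direction and their side of the threshold in all 22 settings, 16 crossed it in 1 or more, all of them for the mean, and 0 reversed. These do not cover the 4 separate calls against DMSO, where 7 of the 20 named shared genes kept all 4 in every setting and 13 did not, with *Fsd1* keeping all 4 in 3, *Secisbp2* in 11 and *Il15ra* in 12 of 22.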
